A study of Mus musculus with 18 samples.

Results

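Guanylate-binding proteins and the genes of the MHC class I complex were followed in RNA-seq of embryonic mouse cortex, in 9 of the 23038 gene symbols of the count table. The members were *Gbp2*, *Gbp3*, *Gbp4* and *Gbp7*, the class I heavy chain genes *H2-K1*, *H2-D1*, *H2-T23* and *H2-T24*, and *B2m*. *Gbp4* and *H2-T24* were chosen because of their change in *Nova2-/-* cortex, so their values in that comparison are given as a description without a test. The other 7 were added as relatives of those genes and were tested. Of these, *H2-K1* and *H2-T23* are given as a description in that comparison, for how they passed the filter. Cortex came from 12 mice on a CD1 background at E18.5, with 3 mice in each of 4 groups. These were *Nova2-/-* mice, in which a targeting cassette replaced the first exon of *Nova2*, their wild-type littermates, *Nova1-/-* mice and the wild-type littermates of the *Nova1-/-* mice. The cassette leaves an IRES-Cre at the locus after removal of its neomycin gene, and both nulls are constitutive rather than limited to one cell type. Per the study's methods both lines came from a B57B/6 background and were backcrossed to CD-1, an outbred stock in which MHC genes can vary between animals. NOVA1 and NOVA2 are splicing regulators of neurons.

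Guanylate-binding proteins are large GTPases that cells make in response to interferon, above all interferon gamma, and that assemble on membranes around intracellular pathogens. MHC class I molecules carry peptides from inside the cell to its surface, where T cells and natural killer cells read them. Each consists of a polymorphic heavy chain and the invariant light chain beta-2 microglobulin. In the brain the class I genes are low compared with lymphoid tissue, and endothelium, microglia and some neurons express them.

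The 12 cortex libraries held between 16518172 and 31362018 estimated counts. The wild-type library 2 of the *Nova2* litters was the smallest and stood apart, with 21791 genes counted against 18397 to 19396 in the other 11. Values that were not whole numbers made up 7.48% to 11.7% of genes in the 6 libraries of the *Nova2* litters and 18.6% to 20.0% in the 6 of the *Nova1* litters. A difference between the litters therefore cannot be told apart from a difference in how their libraries were made or counted. *Nova1* measured between 0.0340 and 0.210 CPM (counts-per-million, scaled by TMM) in *Nova1-/-* cortex, and *Nova2* measured 17.0 to 21.5 CPM in *Nova2-/-* cortex against 31.0 to 40.9 CPM in the littermates. The mice of a group were biological replicates per the study's methods.

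All 9 members passed the filter on low counts in every comparison, but most were rare. In the *Nova2* litters *H2-K1* and *H2-T23* passed only through the wild-type mice, since the filter asked for 0.448 CPM in 3 mice and only 2 of the 3 *Nova2-/-* mice reached it. Per kilobase of merged exons, *B2m* was the highest member in every group, with a mean of 21.2 CPM per kb in wild-type cortex of the *Nova2* litters, and *H2-D1* followed with 7.73 CPM per kb. *H2-T24* came next with 1.75 CPM per kb, and the remaining members had means between 0.314 and 0.940 CPM per kb. Among those, *Gbp7* (0.775 to 1.07 CPM per kb) lay above *H2-K1* (0.529 to 0.772) and *Gbp2* (0.282 to 0.680) in every mouse, and *H2-T23* (0.710 to 0.836) lay above *Gbp2*, while *Gbp3* (0.439 to 0.911) overlapped all 4. The mean of *Gbp4* ranked 9 of the 9, but its range of 0.183 to 0.509 CPM per kb overlapped those of *Gbp2* and *Gbp3*. In *Nova2-/-* cortex the mean of *Gbp4* was 1.21 CPM per kb and ranked 3, with a range that overlapped that of *Gbp7* at rank 4. The mean of *H2-T24* ranked 3 in the wild-type group and 5 in *Nova2-/-* cortex, there overlapping *Gbp3*, *H2-K1* and *H2-T23*.

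**Figure D1:**
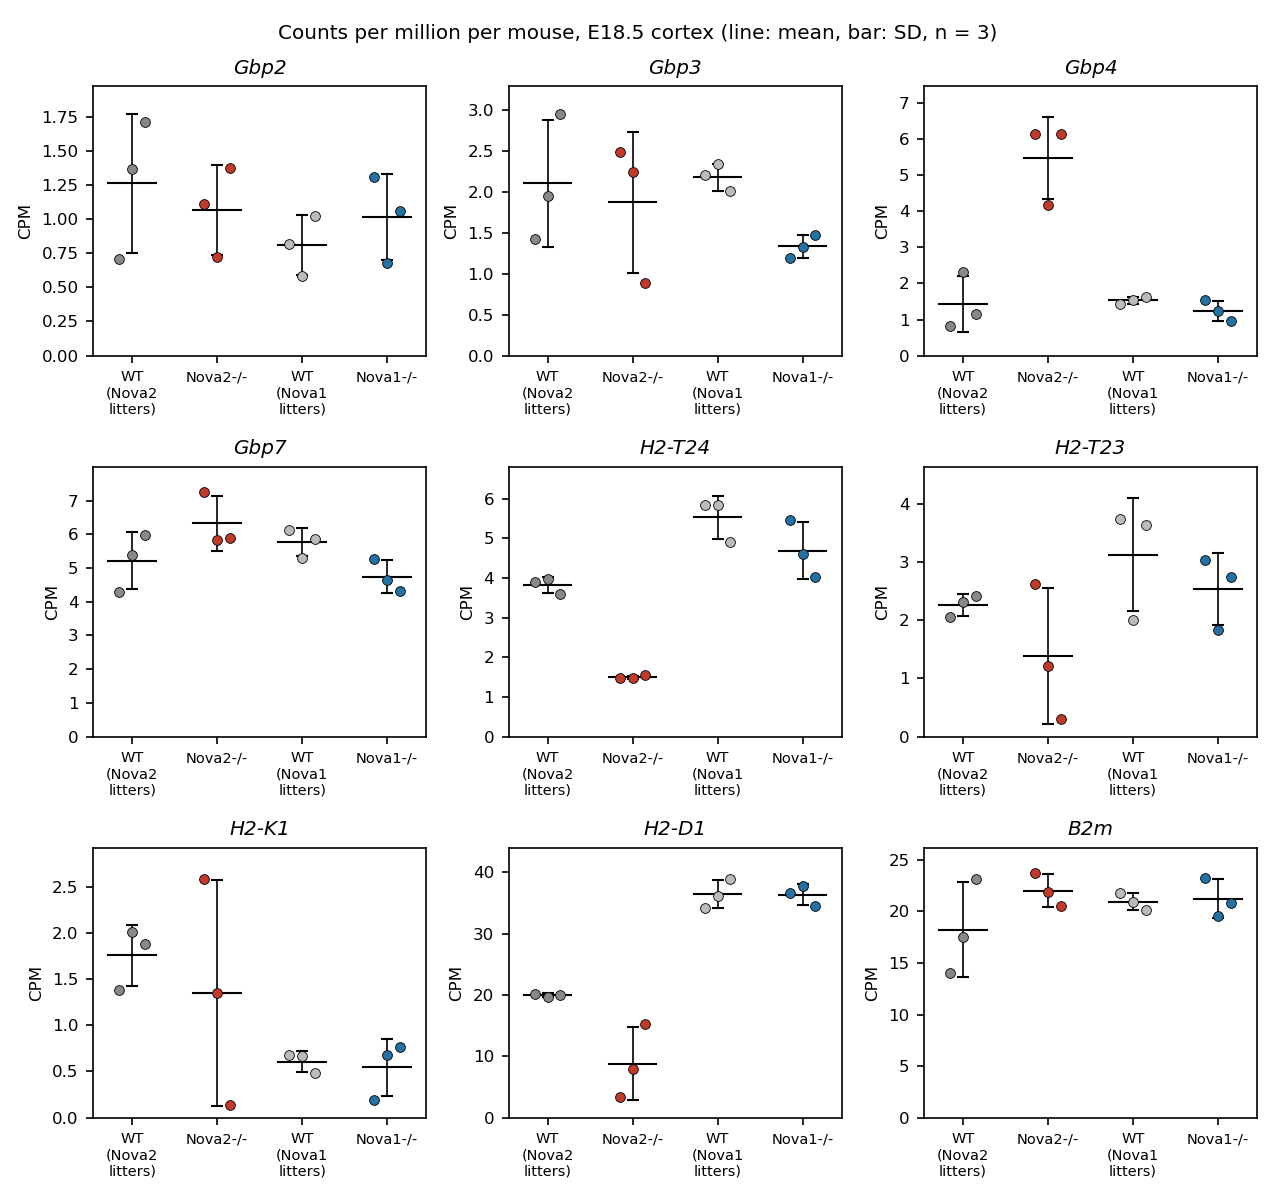
Each panel shows 1 member, with CPM on the vertical axis and the 4 groups of 3 mice on the horizontal axis (points are mice, lines are means, bars are SD). *Gbp4* is above and *H2-T24* below every other mouse in the 3 *Nova2-/-* mice, while *H2-D1*, *H2-K1* and *H2-T23* spread widely in those same 3 mice.

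*Gbp4*, the member picked for its increase, is a guanylate-binding protein of the chromosome 5 cluster (chr5:105115767-105139586, mm10). It measured 6.14, 4.18 and 6.14 CPM in the 3 *Nova2-/-* mice and 0.829, 2.31 and 1.14 CPM in their wild-type littermates. The lowest *Nova2-/-* mouse was thus above the highest wild-type mouse, and also above all 6 mice of the *Nova1* litters, which lay between 0.972 and 1.63 CPM. The fitted difference was 3.99-fold, a log2 fold change of 2.0 with a standard error of 0.37. These CPM rest on 93 to 139 counts in the *Nova2-/-* mice and 21 to 39 in the littermates. The highest of the wild-type values was that of library 2, and without that library the log2 fold change was 2.48.

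The other 3 guanylate-binding proteins among the members lie together on chromosome 3, *Gbp7* at chr3:142530336-142550151, *Gbp3* at chr3:142560016-142573213 and *Gbp2* at chr3:142620663-142638008. *Gbp2* measured 1.11, 0.719 and 1.37 CPM in *Nova2-/-* mice and 0.710, 1.36 and 1.71 CPM in wild-type littermates. *Gbp3* measured 2.49, 2.25 and 0.884 CPM against 1.42, 1.96 and 2.95 CPM, and *Gbp7* measured 7.25, 5.84 and 5.88 CPM against 4.30, 5.39 and 5.97 CPM. The groups overlapped for each of these 3 genes. Their log2 fold changes were -0.24 (SE 0.41), -0.18 (SE 0.42) and 0.28 (SE 0.18), and none passed edgeR's quasi-likelihood test after Benjamini-Hochberg adjustment over all genes (adjusted p = 0.791, 0.852 and 0.449).

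Further guanylate-binding proteins had 7 rows in the table, and the 6 that passed the filter were compared with the members, 5 of them on chromosome 5. Their order along that chromosome is *Gbp8*, *Gbp9*, *Gbp4*, *Gbp10*, *Gbp6* and *Gbp11*, and *Gbp11* is annotated as a transcribed pseudogene. *Gbp8* measured 1.20, 0.808 and 1.06 CPM in *Nova2-/-* mice against 0.118, 0.355 and 0.134 CPM in littermates, and *Gbp10* measured 1.69, 1.35 and 1.02 CPM against 0.197, 0.711 and 0.268 CPM. *Gbp9* measured 6.72, 5.93 and 5.13 CPM against 1.58, 3.61 and 4.22 CPM. *Gbp6*, *Gbp8* and *Gbp10* reached the filter's 0.448 CPM in 3 mice only among the *Nova2-/-* mice, so they were tested because they were high there, and *Gbp4* was picked for its increase. Their higher values are therefore a description. The remaining 2 genes of the cluster, *Gbp9* and *Gbp11*, reached it in both groups, and in both genes every *Nova2-/-* mouse was above every littermate, as it was in 13% of all genes tested. In the 4 chromosome 3 genes the groups overlapped. Against the mice of the *Nova1* litters, *Gbp8* and *Gbp11* were also higher in every *Nova2-/-* mouse, but *Gbp6*, *Gbp9* and *Gbp10* overlapped. For *Gbp6* every wild-type mouse of the *Nova2* litters was below every wild-type mouse of the *Nova1* litters. The wild-type mice overlapped in the other genes of the cluster. A low level in the littermates may therefore add to the difference in *Gbp6*, which was not tested. The split by chromosome was chosen after these values were seen, and the paralogs share sequence, so that counts may be divided among them in ways that cannot be checked here.

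None of the 6 further genes passed the threshold of an adjusted p below 0.05 with a log2 fold change of at least 1. The log2 fold changes were 1.39 for *Gbp11* (SE 0.32, edgeR adjusted p = 0.0838) and 0.92 for *Gbp9* (SE 0.33, edgeR adjusted p = 0.188). As a description without a test, they were 2.43 for *Gbp8* (SE 0.48), 1.88 for *Gbp10* (SE 0.49) and 1.35 for *Gbp6* (SE 0.48). On chromosome 3, *Gbp5* had a log2 fold change of 0.05 (SE 0.64, edgeR adjusted p = 0.977). DESeq2, edgeR's exact test and the model over all 12 cortex samples called *Gbp11*. Calls of *Gbp8* and *Gbp10* in some of these settings are a description, since both passed the main filter only through the *Nova2-/-* mice.

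**Figure D2:**
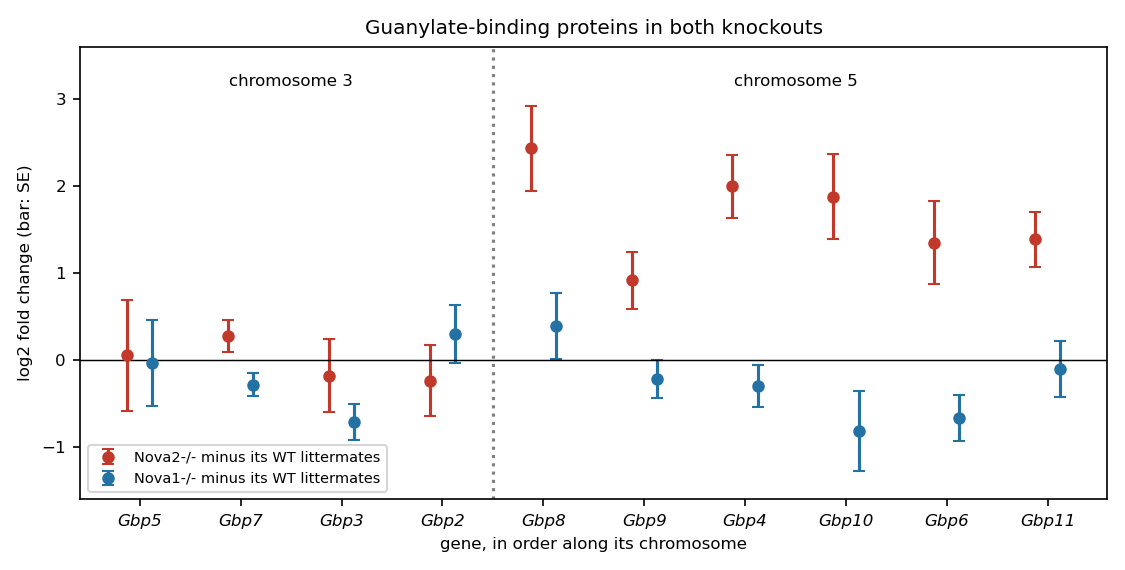
Points are log2 fold changes of 10 guanylate-binding proteins with their standard errors, in red for *Nova2-/-* and in blue for *Nova1-/-* cortex, each against its own wild-type littermates. The chromosome 5 genes lie between 0.92 and 2.43 in *Nova2-/-* cortex and between -0.81 and 0.40 in *Nova1-/-* cortex. The chromosome 3 genes lie between -0.24 and 0.28 in *Nova2-/-* cortex and between -0.71 and 0.30 in *Nova1-/-* cortex. *Gbp4* was picked for its increase, and *Gbp6*, *Gbp8* and *Gbp10* passed the filter only through the *Nova2-/-* mice.

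Interferon acts on the promoters of these families through short elements, so the RefSeq promoters (GRCm38.p6, 250 bases before to 50 after the start) were searched on both strands for the core of the interferon-stimulated response element, GAAANNGAAA. A promoter was listed for 7 of the 9 members, and none for *Gbp4* or *H2-T24*. An exact match was found for 5 of the 7, *Gbp2*, *Gbp3*, *Gbp7*, *H2-T23* and *B2m*, and in 3.44% of all 32851 promoters. The stretches around it are shown 5′ to 3′ on the gene's strand, with the match in capitals, to let the members be compared. In *Gbp3* the capitals hold a pair of overlapping matches.
*Gbp2* (chr3:142620579-142620638, + strand): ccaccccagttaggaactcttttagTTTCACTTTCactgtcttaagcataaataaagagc
*Gbp3* (chr3:142559974-142560033, + strand): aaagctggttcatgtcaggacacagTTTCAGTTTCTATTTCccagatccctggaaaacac
*Gbp7* (chr3:142530258-142530317, + strand): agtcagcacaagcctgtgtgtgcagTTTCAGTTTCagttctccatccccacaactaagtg
*H2-T23* (chr17:36032791-36032850, - strand): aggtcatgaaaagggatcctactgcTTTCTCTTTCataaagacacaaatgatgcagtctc
*B2m* (chr2:122147523-122147582, + strand): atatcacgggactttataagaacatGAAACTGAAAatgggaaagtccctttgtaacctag

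The matches began 59 bases before the start in *Gbp2*, 53 in *Gbp7* and 45 in *Gbp3*, and farther away in *H2-T23* (124 bases) and *B2m* (139 bases). The gamma-activated site, TTCNNNGAA, was matched in *Gbp7* alone among the 7, and in 8.30% of all promoters. The matches to the 2 elements in *Gbp7* did not overlap. None of these 5 genes passed the test in *Nova2-/-* cortex, where *H2-T23* passed the filter only through the littermates. A match describes the letters in this window only. Near matches were not searched, so a promoter without a match may still hold a variant of an element.

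*H2-T24*, the member picked for its decrease, is a nonclassical heavy chain gene of the T region of the MHC (chr17:36003471-36020800, mm10). It measured 1.47, 1.48 and 1.55 CPM in the *Nova2-/-* mice and 3.91, 3.97 and 3.59 CPM in the wild-type littermates. The 3 *Nova2-/-* mice lay close together and below all 9 other mice, of which the lowest in the *Nova1* litters was at 4.02 CPM. The fitted value was 2.53-fold lower, a log2 fold change of -1.34 with a standard error of 0.20, and -1.31 without wild-type library 2. The long noncoding RNA gene *A930015D03Rik* (chr17:35994504-36038174) spans the whole of *H2-T24* and of *H2-T23*, and overlaps *H2-T22* in part. It measured 5.21, 4.63 and 3.85 CPM in *Nova2-/-* mice and 3.98, 2.90 and 2.08 CPM in littermates (log2 fold change 0.62, SE 0.26, edgeR adjusted p = 0.244). Whether counting used the strand is not given in the sources used here, so reads from exons that it shares with *H2-T24* or *H2-T23* could not be told apart.

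*H2-D1*, a classical heavy chain (chr17:35263094-35267497), measured 3.34, 7.90 and 15.2 CPM in *Nova2-/-* mice and 20.2, 19.7 and 20.0 CPM in littermates. All 3 *Nova2-/-* mice were below all 3 littermates, but the mice of the knockout group differed among themselves by 4.56-fold. The log2 fold change was -1.18 (SE 0.42), and it did not pass edgeR's quasi-likelihood test after Benjamini-Hochberg adjustment (adjusted p = 0.187). In a model over all 12 cortex samples it did, with a log2 fold change of -1.19 and an adjusted p of 0.0393. Leaving out single mice moved the log2 fold change between -1.83, without *Nova2-/-* mouse 3, and -0.78, without *Nova2-/-* mouse 1.

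The classical heavy chain *H2-K1* (chr17:33996012-34000619) measured 2.58, 1.35 and 0.133 CPM in *Nova2-/-* mice, the last from 3 counts, and 1.38, 2.01 and 1.88 CPM in littermates. *H2-T23*, which encodes the nonclassical heavy chain Qa-1 (chr17:36029977-36032701), measured 2.63, 1.21 and 0.309 CPM against 2.05, 2.31 and 2.41 CPM. In both genes *Nova2-/-* mouse 1 was above every littermate and mice 2 and 3 were below them. Both genes passed the filter only through the littermates, so their log2 fold changes are a description. These were -0.37 (SE 0.68) for *H2-K1* and -0.71 (SE 0.56) for *H2-T23*. Without *Nova2-/-* mouse 3 the log2 fold change of *H2-K1* was 0.17.

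*B2m*, the light chain shared by all class I molecules (chr2:122147687-122153082), measured 23.7, 21.9 and 20.5 CPM in *Nova2-/-* mice and 14.0, 17.5 and 23.2 CPM in littermates. The groups overlapped, and the log2 fold change was 0.27 (SE 0.18, edgeR adjusted p = 0.438). The knockout mice differed by 1.16-fold in this gene.

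Of the 7 members not picked for their change, 0 passed both thresholds in *Nova2-/-* cortex, where 0.261% of 15691 genes did. The 7 include *H2-K1* and *H2-T23*, which passed the filter only through the littermates. The same count was 0 with DESeq2 and with edgeR's exact test, and 1 of the 7, *H2-D1*, had an unadjusted p below 0.05, where 19.2% of all genes did. The groups were apart in the lower direction for 1 of the 7, again *H2-D1*, against 12.8% of all genes, and in the higher direction for 0.

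The spread among the 3 *Nova2-/-* mice set several class I heavy chains apart from most other genes. The highest mouse was 19.5-fold above the lowest for *H2-K1*, 8.49-fold for *H2-T23* and 4.56-fold for *H2-D1*, and the median over 15682 genes was 1.16-fold. The share of genes with a smaller ratio was 99.9% for *H2-K1*, 99.7% for *H2-T23* and 99.3% for *H2-D1*. The lowest mouse had 3 counts for *H2-K1*, 7 for *H2-T23* and 75 for *H2-D1*, and ratios from few counts are imprecise. Among other rare genes, *Gbp3* was at 97.9% and *Gbp5* at 97.3%. *H2-T24* was at the other end, with 1.05-fold and 10.5% of genes below it. In the wild-type littermates the same ratios were 1.46 for *H2-K1*, 1.18 for *H2-T23* and 1.03 for *H2-D1*. A wide spread of *H2-K1* was also seen in *Nova1-/-* mice, at 4.07-fold with 99.4% of genes below it, and 5 counts in the lowest mouse. In those mice *H2-T23* differed by 1.65-fold and *H2-D1* by 1.10-fold.

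The order of the 3 mice was not the same for all heavy chains. *Nova2-/-* mouse 3 was the lowest of the 3 for *H2-K1* and *H2-T23* and the highest for *H2-D1*. Among the other class I genes, named here after their values were seen, *H2-T9* measured 4.89, 3.14 and 1.28 CPM in mice 1, 2 and 3. *H2-T10*, annotated as a transcribed pseudogene, measured 0.578, 8.08 and 13.8 CPM in those mice, and at most 0.533 CPM in the other 9, and it passed the filter only through the *Nova2-/-* mice. Its log2 fold change of 4.20 (SE 0.99) is therefore a description, and in mouse 1 the gene was close to the highest of the other 9 mice. Thus among the 3 *Nova2-/-* mice *H2-D1* and *H2-T10* were lowest in mouse 1 and highest in mouse 3. *H2-K1*, *H2-T23* and *H2-T9* were highest in mouse 1 and lowest in mouse 3. This is an order within the group, since *H2-D1* was below every littermate in mouse 3 as well. Class I genes are polymorphic and closely related in sequence, so a count for one of them depends on which reads the authors' aligner placed there. How much that contributed was not tested.

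**Figure D3:**
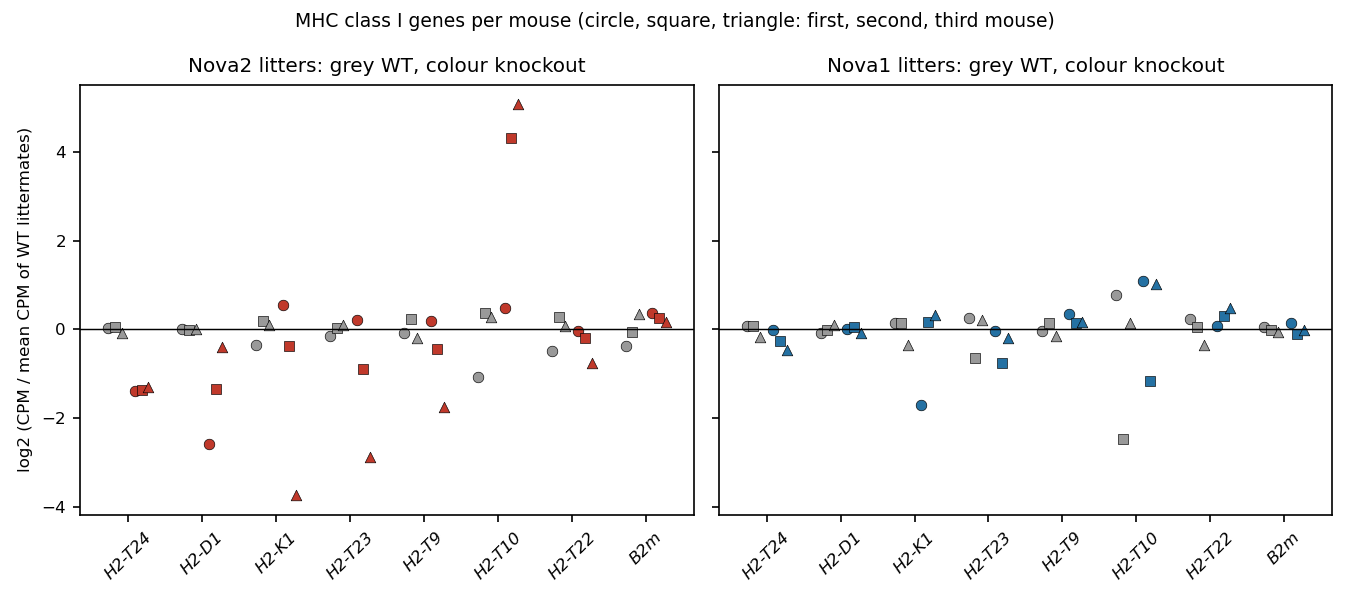
Each point is 1 mouse, as the log2 ratio of its CPM to the mean of its wild-type littermates, with wild-type mice in grey and knockouts in colour. Circles, squares and triangles are the mice of each group in order of replicate number. *H2-K1*, *H2-T23* and *H2-T9* are highest in the first and lowest in the third *Nova2-/-* mouse, *H2-D1* and *H2-T10* the reverse, and *H2-T24* is alike in all 3.

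The promoters of *H2-K1* and *H2-D1* were compared because these classical genes are known to share a kappaB element, searched here by its core GGGATTCCC on both strands. Among the 7 members with a promoter, only these 2 held it, and 0.353% of all promoters did. The stretches of 60 bases around the match, with the core in capitals, were the same at 59 positions.
*H2-K1* (chr17:34000424-34000483, - strand): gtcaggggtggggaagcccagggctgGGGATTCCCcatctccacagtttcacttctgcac
*H2-D1* (chr17:35262898-35262957, + strand): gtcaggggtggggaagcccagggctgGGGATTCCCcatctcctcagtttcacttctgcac

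In *Nova1-/-* cortex all 9 members were tested, since none was chosen on these mice, and 0 passed both thresholds. Over all genes 0.0126% passed, which is 2 of 15901. The count of members was also 0 with DESeq2 and edgeR's exact test, and 1 member of 9, *Gbp3*, had an unadjusted p below 0.05, against 7.44% of all genes. *Gbp4* measured 1.53, 1.23 and 0.972 CPM in *Nova1-/-* mice against 1.42, 1.55 and 1.63 CPM in littermates (log2 fold change -0.30, SE 0.24, edgeR adjusted p = 0.830). *H2-T24* measured 5.46, 4.60 and 4.02 CPM against 5.83, 5.85 and 4.91 CPM (log2 fold change -0.23, SE 0.15, edgeR adjusted p = 0.779). Both overlapped between the groups. *H2-D1* lay between 34.2 and 38.9 CPM in all 6 mice of the *Nova1* litters, with a log2 fold change of -0.01 (SE 0.07).

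*Gbp3* and *Gbp7* were the members whose groups stood apart in the *Nova1* litters. *Gbp3* measured 1.20, 1.33 and 1.48 CPM in *Nova1-/-* mice and 2.20, 2.34 and 2.01 CPM in littermates, a log2 fold change of -0.71 (SE 0.21, edgeR adjusted p = 0.505). *Gbp7* measured 5.27, 4.63 and 4.31 CPM against 6.12, 5.30 and 5.87 CPM, a log2 fold change of -0.28 (SE 0.13, edgeR adjusted p = 0.674). Over all genes, 6.61% had every *Nova1-/-* mouse below every littermate, and 2 of the 9 members did. The remaining members, *B2m*, *Gbp2*, *H2-K1* and *H2-T23*, had log2 fold changes between -0.32 and 0.30.

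The change in *Nova2-/-* cortex was compared with the change in *Nova1-/-* cortex in a model over all 12 mice. The difference of the log2 fold changes was 2.29 (SE 0.45) for *Gbp4* and -1.12 (SE 0.23) for *H2-T24*, given without a test because the genes were chosen on part of it. Of the 7 other members 0 passed both thresholds, against 0.697% of 16210 genes, and the count was 0 with DESeq2. Unadjusted p-values below 0.05 were seen for 2 of the 7, against 18.2% of all genes, *H2-D1* with a difference of -1.18 (SE 0.44, edgeR adjusted p = 0.172) and *Gbp7* with 0.55 (SE 0.22, edgeR adjusted p = 0.204). Without *Nova2-/-* mouse 3 the difference for *H2-D1* was -1.82 with an edgeR adjusted p of 0.0129.

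The wild-type mice of the 2 sets of litters also differed in class I genes. *H2-K1* was higher in the wild-type mice of the *Nova2* litters, at 1.38, 2.01 and 1.88 CPM, than in those of the *Nova1* litters, at 0.676, 0.668 and 0.478 CPM (log2 fold change 1.53, SE 0.31, edgeR adjusted p = 0.0397). It was the 1 of the 7 tested members past both thresholds, where 0.647% of 15918 genes were. The call was lost in the model over all 12 samples (edgeR adjusted p = 0.141) and when any 1 mouse other than *Nova2*-litter wild-type mouse 3 was left out. *H2-D1* was lower in the *Nova2* litters, at 20.2, 19.7 and 20.0 CPM against 34.2, 36.2 and 38.9 CPM. Its log2 fold change of -0.86 (SE 0.09) had an edgeR adjusted p of 0.00592 but was under the fold threshold. The adjusted p of *H2-D1* was not below 0.05 in every alternative setting, and it was in 3 of 6 edgeR fits with a single mouse left out.

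*H2-K1* was thus 1 of 7 whose groups stood apart upward, against 12.5% of all genes, and *H2-D1* 1 of 7 downward, against 14.4%. *H2-T24* was also lower in these wild-type mice than in those of the *Nova1* litters, at 3.59 to 3.97 CPM against 4.91 to 5.85 CPM, and *Gbp4* overlapped between them. *H2-D1* was therefore lowest in *Nova2-/-* mice, intermediate in their wild-type littermates and highest in both groups of the *Nova1* litters, which overlapped. Litter, genetic background and library differences are joined in this comparison and cannot be told apart.

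Genes that act with the members were counted in the *Nova2-/-* comparison, in 7 lists: other guanylate-binding proteins, other class I heavy chains, other interferon-induced GTPases, class I peptide loading, MHC class II, interferon receptors with their signalling, and type I interferon-stimulated genes. Of all these 0 passed both thresholds with the quasi-likelihood test of edgeR, 3 did with DESeq2 and 4 with edgeR's exact test, all of them *H2-T10* or a chromosome 5 guanylate-binding protein. Among the genes called, only *Gbp11* passed the filter in both groups, so the other calls are a description. For comparison with the lists, the median log2 fold change over all genes was 0.01 and 19.2% of genes had an unadjusted p below 0.05. No median or count is given for the 6 tested guanylate-binding proteins outside the members, since *Gbp6*, *Gbp8* and *Gbp10* passed the filter only through the *Nova2-/-* mice. Among the 6 tested class I heavy chains outside the members, *H2-T10* and *H2-M3* passed the filter only through the *Nova2-/-* mice. As a description, the median was -0.0038, from *H2-T10* at 4.20 to *H2-T9* at -0.45. The 1 with an unadjusted p below 0.05 was *H2-T10*, which passed the filter only through the *Nova2-/-* mice and is given as a description.

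Other interferon-induced GTPases act, like the guanylate-binding proteins, on pathogen vacuoles or viruses. Of the 5 tested, *Igtp*, *Irgm2*, *Iigp1* and *Mx2* passed the filter only through the *Nova2-/-* mice, so no median or count is given. As a description, the log2 fold changes ran from *Igtp* at 0.58 to *Mx2* at -0.54. *Irgm1*, which passed in both groups, was at -0.0016. The 13 genes of peptide loading had a median of 0.13, with 0 at an unadjusted p below 0.05. They lay between *Nlrc5*, the transactivator of class I genes, at 0.88 and *Psmb10*, a subunit of the immunoproteasome, at -0.21. *Nlrc5* passed the filter only through the *Nova2-/-* mice, so its value is a description. Of 13 genes of interferon receptors and signalling 3 had an unadjusted p below 0.05, with a median of 0.16 and a range from the transcription factor *Irf1* at 0.43 to the inhibitor *Socs1* at -0.36. Of 18 type I interferon-stimulated genes *Ifit1*, *Ifit3*, *Usp18*, *Ifi44* and *Bst2* passed the filter only through the *Nova2-/-* mice. *Isg15*, *Oasl2* and *Xaf1* passed only through the littermates. The median of -0.10 and the range from *Ifit3* at 0.53 to *Usp18* at -0.80 are therefore a description. The 1 gene with an unadjusted p below 0.05 passed in both groups. Of 4 MHC class II genes *H2-Eb1* passed the filter only through the littermates, so its log2 fold change of -1.45 is a description. No median or count is given for this list. *H2-DMa*, which passed in both groups, was at 0.56 (SE 0.17, edgeR adjusted p = 0.138). The lists also gave 0 calls in *Nova1-/-* cortex, with 4 of 61 genes at an unadjusted p below 0.05 by edgeR's test, against 7.44% of all genes. Between the wild-type groups they gave 0 calls as well, with 14 of 64 genes at an unadjusted p below 0.05, against 21.1% of all genes.

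Cells that are known to express guanylate-binding and class I genes were followed by their markers, because fewer cells of a type and less RNA per cell cannot be told apart in whole cortex. Summed markers of meningeal fibroblasts were between 272 and 739 CPM in the wild-type littermates and between 1167 and 1283 CPM in *Nova2-/-* mice, with all 11 genes measured. In the *Nova1* litters the sums were 937 to 1405 CPM, at *Gbp4* levels of 0.972 to 1.63 CPM. All 11 markers had a log2 fold change above 0 in *Nova2-/-* cortex, with a median of 1.34, and 2 passed both thresholds, against 0.261% of all genes. These were the collagen gene *Col1a1* (log2 fold change 1.50, edgeR adjusted p = 0.0477) and the proteoglycan gene *Dcn* (1.34, edgeR adjusted p = 0.0419). The part of the fibroblast markers in the values of the members was not tested.

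Border macrophage markers summed to 23.1 to 60.7 CPM in the littermates and 71.1 to 86.4 CPM in *Nova2-/-* mice, brain endothelium to 270 to 316 and 342 to 366 CPM, and mural cells to 117 to 149 and 169 to 179 CPM. These 3 sums were higher in all 3 *Nova2-/-* mice than in all 3 littermates. By gene, the groups stood apart upward for 3 of 4 border macrophage, 3 of 10 endothelial and 4 of 7 mural markers, against 13% of all genes. The log2 fold changes ran from *Kdr* at 0.78 to *Esam* at -0.11 in endothelium, and from *Acta2* at 0.93 to *Kcnj8* at -0.03 in mural cells. In the *Nova1* litters border macrophage markers summed to 64.4 to 77.5 CPM, which overlapped the *Nova2-/-* mice, while endothelial sums of 269 to 309 CPM and mural sums of 135 to 146 CPM were below all 3 *Nova2-/-* mice. Microglial markers overlapped, at 113 to 148 and 127 to 162 CPM, as did markers of lymphocytes and other leukocytes, at 6.23 to 8.95 and 5.21 to 7.03 CPM, with the T cell gene *Cd3e* and the cytotoxic cell gene *Nkg7* at 0 in all 3 *Nova2-/-* mice. Markers of red blood cells overlapped at 111 to 283 and 199 to 327 CPM, and the cortical excitatory neuron markers, which are expected of this tissue, at 1012 to 1151 and 1030 to 1158 CPM. The part of these cells in the results was not tested.

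**Figure D4:**
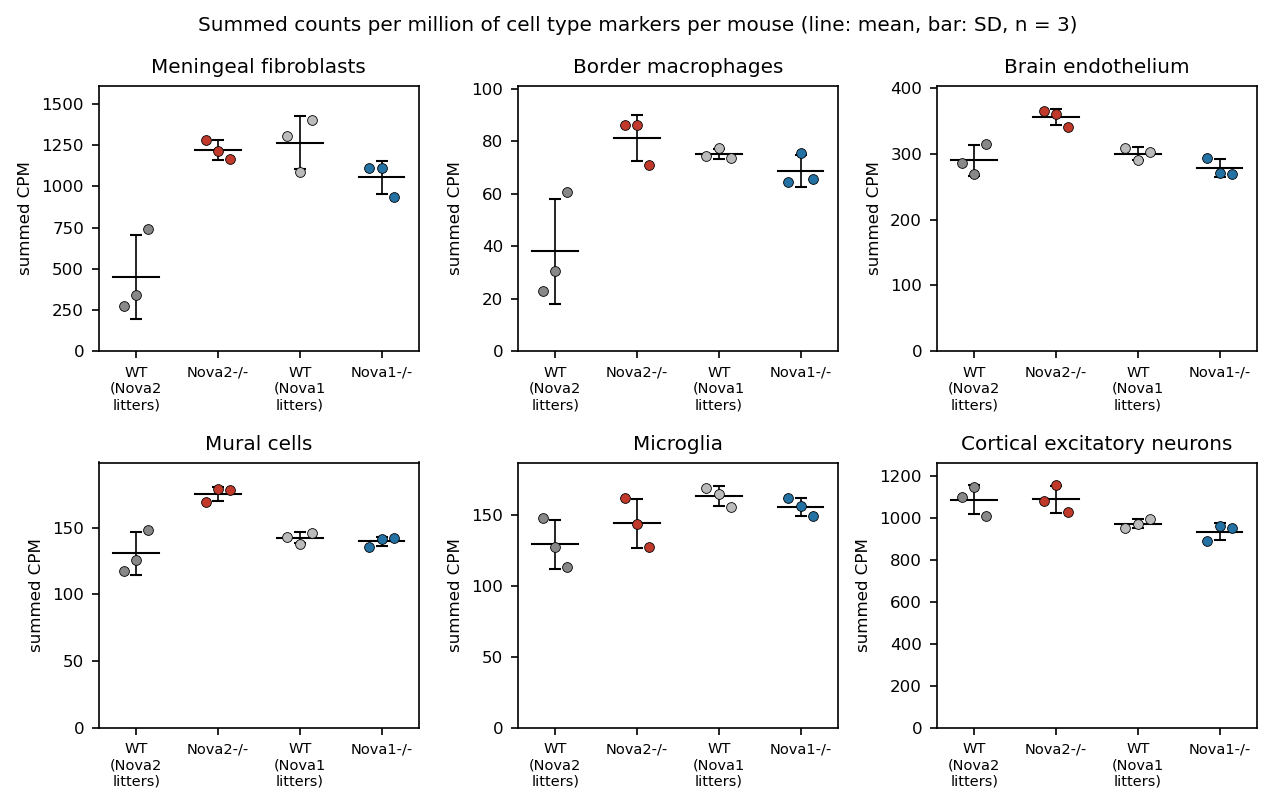
Summed CPM of marker genes are shown for 6 cell types, with the 4 groups of 3 mice on the horizontal axis (points are mice, lines are means, bars are SD). Meningeal fibroblast, border macrophage, endothelial and mural sums are higher in *Nova2-/-* mice than in their wild-type littermates, and the neuronal sums overlap.

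Across the 12 cortex libraries, the genes most like *Gbp4* by Pearson correlation of log2 CPM among 16210 genes were *Kremen1* (r = 0.96), *Pacsin2* (0.94) and *S1pr3* (0.94). *Kremen1* measured 10.5 to 12.1 CPM in *Nova2-/-* mice and 7.85 to 9.60 CPM in the 9 others. Those most like *H2-T24* were *Hspbp1* (0.97), *Rasgrp2* (0.96) and *Caly* (0.96), and *Hspbp1* measured 42.0 to 43.7 CPM in *Nova2-/-* mice and 51.3 to 57.6 CPM in the others. The correlations follow the group differences and are a description over libraries that share them.

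Genes beside the members that belong to neither family were read from the same table. *Gtf2b*, next to *Gbp2*, had a log2 fold change of 0.06 (SE 0.09) in *Nova2-/-* cortex, *Ring1*, next to *H2-K1*, -0.07 (SE 0.31), and *Ddx39b*, next to *H2-D1*, -0.13 (SE 0.07). *Patl2* and *Trim69* beside *B2m* and *AA388235* beside *H2-K1* did not pass the filter. None of those tested passed both thresholds in either knockout.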

How the data were processed

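RNA of E18.5 cortex was isolated with Trizol and, after Ribo-Zero removal of ribosomal RNA, TruSeq libraries were sequenced as paired ends and aligned to mm10 with OLego. The authors deposited expected counts for each gene symbol of 12 cortex samples, not normalized, and the counting program and annotation are not given in the sources used here. The deposited columns of log2 fold changes and FDR of the authors' own comparisons, and the splicing tables with the midbrain and hindbrain samples, were not used. Expected counts were rounded.

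Genes passing filterByExpr were fitted with edgeR 4.0.16 in R 4.3.3 (TMM, quasi-likelihood test, Benjamini-Hochberg adjustment over all genes tested), separately for each knockout and its littermates, for both wild-type groups, and over all 12 samples for the difference of changes. Genes were called at an adjusted p below 0.05 when the log2 fold change reached 1 in either direction. Standard errors are the log2 fold change over the square root of F. CPM were TMM-scaled over the 12 samples, with a prior count of 2 for log2 values. Totals of 16518172 to 31362018 counts limit the precision of members with few counts. Alternatives used DESeq2 1.42.0, other filters and normalization, edgeR's exact test, a replicate block and single mice left out. The fits were tested on simulated data. Merged exon lengths came from GENCODE M1, positions, neighbours and promoters from RefSeq on GRCm38.p6, and tables were joined with Python 3.11.15 and pandas 2.3.3.

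Members and gene lists were chosen with earlier results of these data known. Named genes were all 9 members, list members past both thresholds or else the largest and smallest log2 fold change of a list, the 3 genes most correlated with *Gbp4* and with *H2-T24*, the nearest counted gene on either side of each member, and *Nova1* and *Nova2*. Others are named as chosen after their values were seen, or for how they passed the filter.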

Additional observations from a re-analysis of the deposited data

Results flagged for a closer look

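*Gbp7* lay on opposite sides of its littermates' mean in the 2 knockouts, although it passed edgeR's quasi-likelihood test in neither (adjusted p = 0.449 in *Nova2-/-* and 0.674 in *Nova1-/-* cortex) and the *Nova2-/-* mice overlapped their littermates. All 3 *Nova2-/-* mice (7.25, 5.84 and 5.88 CPM) were above the mean of their littermates (5.22 CPM), and all 3 *Nova1-/-* mice (5.27, 4.63 and 4.31 CPM) were below the mean of theirs (5.76 CPM). The difference between the log2 fold changes was 0.55 (SE 0.22), and it did not pass edgeR's quasi-likelihood test over all genes (adjusted p = 0.204). Leaving out single mice gave differences from 0.43 to 0.68.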

How the results depend on the processing

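Across other filters on low counts, upper-quartile normalization, DESeq2, edgeR's exact test, the model over all 12 cortex samples and the replicate block, where each was run, no member's log2 fold change turned its sign. In *Nova2-/-* cortex 1 member (*H2-D1*) was called in the model over all 12 samples. Related genes, 0 of which were called in the main test, numbered 3 with DESeq2, 4 with edgeR's exact test and 4 in the model over all 12 samples (these settings were added for the lists after seeing the data), and 0 to 3 with single mice left out. The 3 were *Irf1*, *Gbp8* and *Gbp9*, without wild-type mouse 3. *H2-T10*, *Gbp8* and *Gbp10* had passed the main filter only through the *Nova2-/-* mice, so their calls are a description. Same-numbered mice of the *Nova2* litters correlated at 0.113, 0.00533 and 0.167 in their deviations, and not every mouse correlated best with its own number. With 3 mice a group these values cannot decide whether same-numbered mice shared a litter or a batch. With the replicate number as a block 1 related gene (*H2-T10*) was called, and 0 members. Between the wild-type groups 2 members passed at any fold change, 0 in the model over all 12 samples, and 0 to 1 with single mice left out. For the difference between the knockouts the count was 0 to 1, the 1 being *H2-D1* without *Nova2-/-* mouse 3.

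Signs turned only when a single mouse was left out. In *Nova2-/-* cortex the log2 fold change ranged from -0.54 to 0.086 for *Gbp2*, from -0.44 to 0.17 for *Gbp3* and from -1.24 to 0.17 for *H2-K1*. In *Nova1-/-* cortex it ranged from -0.44 to 0.25 for *H2-K1*, from -0.048 to 0.044 for *H2-D1* and from -0.052 to 0.074 for *B2m*. Between the wild-type groups it ranged from -0.39 to 0.20 for *Gbp3* and from -0.63 to 0.13 for *Gbp4*. The difference between the knockouts ranged from -1.26 to 0.088 for *H2-T23* and from -1.08 to 0.33 for *H2-K1*. *Gbp4* in *Nova2-/-* cortex ranged from 1.72 to 2.48 and *H2-T24* from -1.39 to -1.31. The causes were not tested. With 3 mice a group and few counts for *H2-K1*, *Gbp2* and *Gbp4*, small changes of these genes were not detectable at this depth.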
